A study of Homo sapiens with 6 samples.

Results

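Complement and coagulation genes were described in an Ewing sarcoma cell line in which the fusion EWSR1::FLI1 was left high or was knocked down. The genes were taken by name: 41 gene symbols for complement components, regulators and receptors and for coagulation factors and their regulators, serpins excluded, of the 26364 symbols listed. Of these 41 genes, 27 belong to complement and 14 to coagulation, and all 41 were found. The rule uses names alone, but earlier results of these data were known when the list was drawn up.

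Complement is a cascade of plasma proteins in which a recognition molecule activates proteases, the proteases cleave C4, C2 and C3, and the cleavage of C5 lets C6, C7, C8 and C9 assemble into a pore, the membrane attack complex. Coagulation starts when tissue factor (F3) meets factor VII, and runs through factor X to thrombin (F2), while tissue factor pathway inhibitors and the protein C system restrain it. The liver makes most of the soluble proteins of both cascades, and many other cells, tumour cells among them, make some components and carry membrane-bound inhibitors and receptors.

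RNAseq was performed on A673/TR/shEF cells, a derivative of the Ewing sarcoma line A673 that carries a tetracycline repressor and a doxycycline-inducible shRNA directed at the chimeric EWSR1::FLI1 mRNA. All 6 samples carried both constructs. The 3 samples of the EWSR1::FLI1 high group were left without doxycycline, and the 3 samples of the EWSR1::FLI1 low group received 1 µg/mL doxycycline for 72 h. The comparison asks which genes change when the fusion is reduced, but no sample given doxycycline without the shRNA was used here, so the drug and the knockdown cannot be told apart. GEO's design text calls the samples of a group independent clones while their titles number them as experiments, so the p-values below measure the spread between these samples, which may be technical. Values are FPKM, fragments per kilobase of gene scaled to sequencing depth, made comparable between libraries by the authors, from 6980361 to 16658933 reads on genes per library.

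The targeted gene followed the labels. FLI1, whose reads come from the fusion and from any unfused FLI1 alike, measured 11.3, 12.7 and 14.2 FPKM in the untreated libraries and 2.91, 4.29 and 3.68 FPKM in the treated ones. Values are listed here and below in the order of replicates 1, 2 and 3, and the groups are called high and low. The log2 fold change of FLI1, low against high on the log2(FPKM + 1) scale, was -1.57 with an SE of 0.18 (limma, adjusted p = 0.000676). EWSR1::FLI1 low replicate 1 stood apart: it had the fewest reads, and the first quartile of FPKM over all genes was 0.372 there against 0.143 to 0.232 in the other 5 libraries. Several results that rest on it are given with and without it.

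FLI1 belongs to the ETS family of transcription factors, whose DNA-binding domain recognises the letters GGAA, and the fusion retains that domain. For genes at which the results turn, the promoter window of RefSeq (GRCh38.p14, 250 bases before to 50 bases after the start, printed along the strand of the gene) is shown with GGAA on either strand in capitals, so that TTCC stands for GGAA on the opposite strand. The windows are those of C6 and C7, genes of one region of chromosome 5 that fell, and of C1R and CFI, which rose: C6 at chr5:41261420-41261719 (minus strand), C7 at chr5:40909247-40909546 (plus strand), C1R at chr12:7092396-7092695 (minus strand) and CFI at chr4:109801950-109802249 (minus strand).
C6: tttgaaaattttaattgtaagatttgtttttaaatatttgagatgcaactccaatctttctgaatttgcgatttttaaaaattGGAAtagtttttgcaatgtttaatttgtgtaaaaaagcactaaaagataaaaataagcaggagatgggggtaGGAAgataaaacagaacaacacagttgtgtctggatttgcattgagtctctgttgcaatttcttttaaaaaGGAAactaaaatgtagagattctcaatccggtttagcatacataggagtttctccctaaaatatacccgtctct
C7: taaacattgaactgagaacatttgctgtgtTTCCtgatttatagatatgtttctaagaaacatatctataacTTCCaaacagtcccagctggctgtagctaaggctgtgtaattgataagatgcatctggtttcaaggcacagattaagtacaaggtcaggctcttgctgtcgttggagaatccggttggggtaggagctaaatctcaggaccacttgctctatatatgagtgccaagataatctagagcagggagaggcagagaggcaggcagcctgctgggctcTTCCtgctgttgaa
C1R: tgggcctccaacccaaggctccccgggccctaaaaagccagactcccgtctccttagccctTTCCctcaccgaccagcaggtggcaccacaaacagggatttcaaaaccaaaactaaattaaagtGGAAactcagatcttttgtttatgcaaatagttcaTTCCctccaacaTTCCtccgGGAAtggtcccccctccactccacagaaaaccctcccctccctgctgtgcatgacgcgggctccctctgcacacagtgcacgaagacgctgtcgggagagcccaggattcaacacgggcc
CFI: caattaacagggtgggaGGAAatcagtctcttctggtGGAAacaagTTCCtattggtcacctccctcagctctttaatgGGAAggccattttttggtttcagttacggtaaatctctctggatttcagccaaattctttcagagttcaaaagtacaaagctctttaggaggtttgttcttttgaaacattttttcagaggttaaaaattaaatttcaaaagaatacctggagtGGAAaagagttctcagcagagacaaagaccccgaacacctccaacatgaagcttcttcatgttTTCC

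The C6 and C7 windows each held 3 matches to GGAA, the C1R window held 5 and the CFI window held 6. GGAA on either strand occurred in 95.5% of the 35093 windows of the same length, with a median of 3 matches and quartiles of 2 and 5, so these counts lie in or near the usual range. C6 and C1R each have another listed window, in which GGAA matched 3 and 4 times. The C6 window was low in GC, at 30.3%, against a median of 58.7% over all windows, and the C7, CFI and C1R windows held 44.3%, 39.3% and 55.3%. Windows were found for 32 of the 41 genes. Searched on both strands, the repeat GGAAGGAA lay in the window of 1 of these 32 genes, C1QA (3.67% of all windows). CCGGAA, which contains GGAA, lay in those of 4, C2, C3AR1, CD46 and CFB (17.3% of all windows). The AP-1 letters TGACTCA lay in the windows of 3, C3AR1, CD59 and F3 (4.95%), and TATAAA in those of 5, C3AR1, C7, CFB, F3 and PROCR (11.5%). A gene was counted if any of its windows matched, while the percentages are shares of single windows, so the counts and percentages are not of the same unit. Each match is a description of letters in a window and not a bound site.

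In EWSR1::FLI1 low cells, both proteases of the C1 complex (C1R and C1S), complement factor I (CFI), tissue factor pathway inhibitor (TFPI), protein S (PROS1) and the thrombin receptor (F2R) rose, while the terminal components C6 and C7 fell. The ratios of mean FPKM ran from 2.29 for PROS1 to 8.04 for CFI upwards, and C6 and C7 were 6.29-fold and 8.58-fold lower. Of the 41 genes, 19 had a mean of at least 0.5 FPKM over the 6 libraries and entered the test, and 22 did not. Of the 19 tested, 8 passed (limma, Benjamini-Hochberg adjusted p under 0.01), 6 of them higher and 2 lower, against 7.88% of the 15504 genes tested in all, 4.51% higher and 3.37% lower. The median log2 fold change of the 19 was 0.71, with 16 above 0 and 3 below, and that of all genes tested was -0.05. The 3 libraries of one group lay entirely above those of the other for 12 of the 19 genes, 9 higher and 3 lower in EWSR1::FLI1 low, and for 41.1% of all genes tested. In bulk samples such as these, fewer cells of a type and less RNA per cell cannot be told apart. The number of members that rose was 4, 2 and 2 without EWSR1::FLI1 high replicates 1, 2 and 3, and 9, 5 and 3 without EWSR1::FLI1 low replicates 1, 2 and 3, and C6 and C7 fell in each of these fits. Over all genes, the number that rose moved the same way from 700, to 374, 287 and 322 and to 1452, 553 and 419. With 3 samples against 3, an exact permutation test of a single gene cannot go below p = 0.1, the value obtained for C7.

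**Figure D1:**
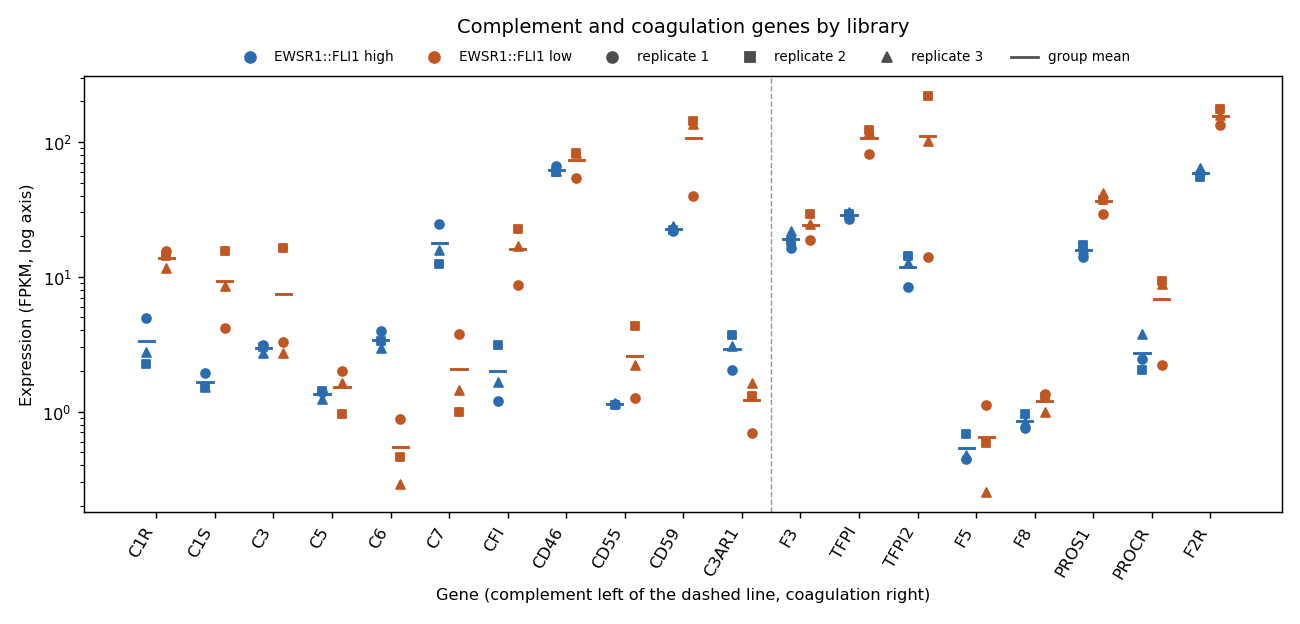
Expression of the 19 tested complement and coagulation genes (FPKM, log axis) in each library, with EWSR1::FLI1 high in blue and EWSR1::FLI1 low in orange, 1 symbol per replicate number and a bar at each group mean. C6 and C7 were lower in every EWSR1::FLI1 low library, and C1R, C1S, CFI, TFPI, PROS1 and F2R were higher in every one, while EWSR1::FLI1 low replicate 1 (orange circle) lay far under the other two for CD59 and TFPI2.

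**Figure D2:**
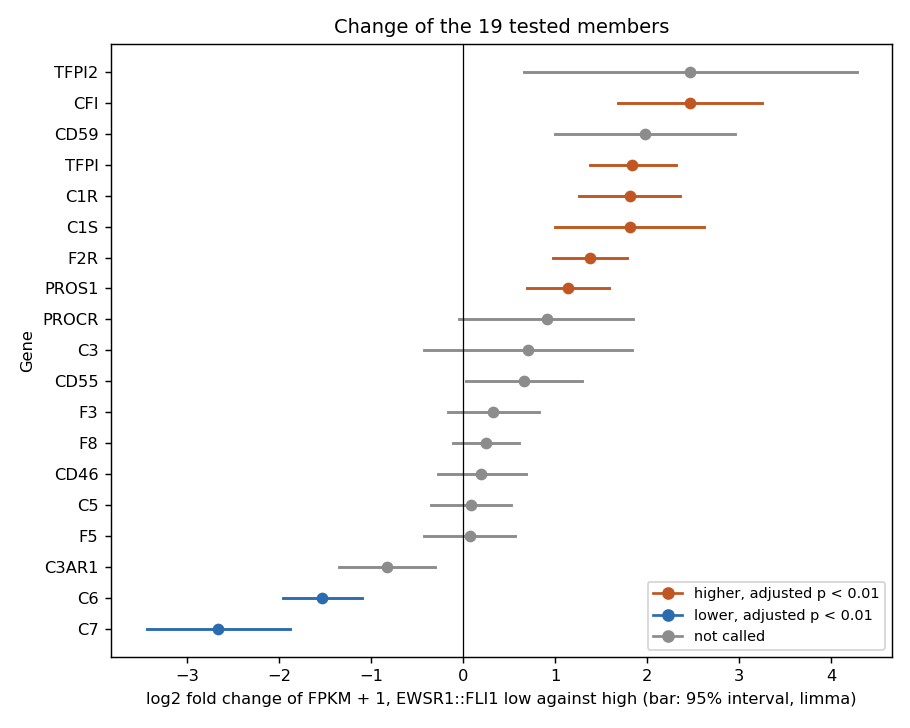
Log2 fold change of FPKM + 1 for the 19 tested genes, EWSR1::FLI1 low against high, with 95% intervals from limma. Orange marks the 6 genes that rose, blue the 2 that fell (C6 at -1.53 and C7 at -2.66), and grey the 11 that did not pass an adjusted p of 0.01, among them TFPI2 and CD59 with fold changes of 2.47 and 1.98.

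The plot of levels shows that members differed widely in abundance: CD46 and F2R were at over 50 FPKM in every library, and F5 had a mean of 0.593 FPKM. The plot of changes shows wide intervals for the genes whose EWSR1::FLI1 low libraries differed most from each other.

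In the classical pathway, C1q binds antibody or other ligands, and C1R, a protease carried by C1q, then activates the protease C1S, which cleaves C4 and C2. C1R was at 4.92, 2.27 and 2.79 FPKM in the high libraries and at 15.4, 14.3 and 11.6 FPKM in the low libraries. Every low library exceeded every high one, with means of 3.33 ± 1.4 and 13.8 ± 2.0 FPKM (SD, n = 3 each), a log2 fold change of 1.81 and an SE of 0.24 (limma, adjusted p = 0.00138). The call was lost without EWSR1::FLI1 high replicate 2 (limma, adjusted p = 0.0105) or 3 (limma, adjusted p = 0.0109), with fold changes of 1.63 and 1.74. C1R shares 672 bases, 14.3% of its exon length, with the neighbouring gene C1RL on the same strand, and how reads there were assigned is not given in the sources used here.

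C1S, the partner of C1R, was at 1.93, 1.52 and 1.52 FPKM in the high group and at 4.16, 15.4 and 8.47 FPKM in the low group. The groups did not overlap, but the low libraries spread over a wide range, with means of 1.66 ± 0.240 and 9.36 ± 5.69 FPKM (SD, n = 3 each). Its log2 fold change of 1.81 had an SE of 0.36 and passed narrowly (limma, adjusted p = 0.00923). The call was lost without any of the EWSR1::FLI1 high replicates (limma, adjusted p = 0.0210, 0.0448 and 0.0427 without replicates 1, 2 and 3) or without EWSR1::FLI1 low replicate 3 (limma, adjusted p = 0.0350). It was also lost with no filter on low values (limma, adjusted p = 0.0253) and with quantile normalization (limma, adjusted p = 0.0129).

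C1R and C1S lie next to each other on chromosome 12 (GENCODE v44 lifted to GRCh37: C1R, ENSG00000159403, chr12:7187513-7245203, minus strand, and C1S, ENSG00000182326, chr12:7096351-7178336, plus strand), 9176 bases apart with no coding gene between them. The ratio of C1R to C1S within a library was 2.55, 1.5 and 1.84 in the high group and 3.71, 0.927 and 1.36 in the low group. These ratios overlapped between the groups. The C1q chains that the proteases attach to were near the limit of detection: C1QA, C1QB and C1QC had 5, 7 and 7 reads in all 6 libraries together. C2, a substrate of C1S and the protease of the classical C3 convertase, had 61 reads and at most 0.0649 FPKM. C4A and C4B, near-identical copies whose reads the counting could split or drop, were listed at 0 in all 6 libraries. The lectin pathway proteases MASP1 and MASP2 had 209 and 46 reads, with highest values of 0.709 and 0.560 FPKM, both in EWSR1::FLI1 low replicate 1.

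C3 is the component on which all complement pathways converge. It was at 3.14, 3.03 and 2.72 FPKM in the high group and at 3.27, 16.3 and 2.70 FPKM in the low group. EWSR1::FLI1 low replicate 2 alone was high, and the other low libraries lay at the level of the high group. Accordingly the log2 fold change of 0.71 had an SE of 0.50 and a 95% interval from -0.42 to 1.84 (limma, adjusted p = 0.352), and it was 0.01 without that library (limma, adjusted p = 0.989). The proteins that amplify C3 cleavage, factor B (CFB), factor D (CFD) and properdin (CFP), had 91, 14 and 29 reads in all and stayed under the limit for testing. For C2 and CFB, the length implied by the deposited FPKM was 4.91 and 4.53 times what their annotated exons give, relative to the median gene, so their FPKM understates their level per length. CFD shares 255 bases, 14.0% of its exon length, with MED16 on the opposite strand, and whether the counting used strand is not given in the sources used here.

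CFI encodes factor I, the protease that inactivates C3b and C4b in the presence of a cofactor. It was at 1.19, 3.14 and 1.67 FPKM in the high group and at 8.64, 22.6 and 17.0 FPKM in the low group. The lowest low library was above the highest high one, with means of 2.0 ± 1.01 and 16.1 ± 7.01 FPKM (SD, n = 3 each). This 8.04-fold ratio was the largest among the members that rose. The log2 fold change was 2.47 with an SE of 0.35 (limma, adjusted p = 0.00181), and the call was lost without EWSR1::FLI1 high replicate 3 or EWSR1::FLI1 low replicate 3 (limma, adjusted p = 0.0124 in both), with fold changes of 2.41 and 2.38. CFI (ENSG00000205403) lies at chr4:110652164-110723306 on the minus strand of GRCh37.

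Among the terminal components, C5, whose cleavage starts the assembly of the pore, was at 1.4, 1.42 and 1.23 FPKM in the high group and at 2.0, 0.960 and 1.63 FPKM in the low group. The groups overlapped, and the 95% interval of its log2 fold change of 0.09 ran from -0.35 to 0.52 (limma, adjusted p = 0.799).

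C6, which binds C5b, was at 3.94, 3.35 and 2.96 FPKM in the high group and at 0.879, 0.461 and 0.291 FPKM in the low group. All 3 low libraries were far under the high ones, which corresponds to 164, 106 and 91 reads against 31, 15 and 18. The means were 3.42 ± 0.492 and 0.544 ± 0.302 FPKM (SD, n = 3 each), and the log2 fold change was -1.53 with an SE of 0.19 (limma, adjusted p = 0.000967). The pseudocount of 1 compresses changes at this level: the fold change was -2.54 with a pseudocount of 0.1 and -2.84 with limma-voom on the recovered reads (limma, adjusted p = 0.00148). Leaving out each library in turn gave -1.68 to -1.41, and C6 passed in all 6 of these fits.

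C7, which joins C5b and C6 and lets the complex insert into a membrane, was the most abundant of the terminal genes in the high group, at 24.7, 12.5 and 15.9 FPKM, and in the low group it was at 3.76, 1.00 and 1.44 FPKM. Its lowest high library was over 3 times its highest low library, and the reads went from 1041, 401 and 495 to 134, 33 and 90. The means were 17.7 ± 6.29 and 2.07 ± 1.48 FPKM (SD, n = 3 each). The log2 fold change of -2.66 had an SE of 0.35 (limma, adjusted p = 0.00118), and it stayed between -3.03 and -2.41 with each library left out, passing in all 6 fits. By log2 fold change C7 was the 22nd lowest of the 15504 genes tested.

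C6 and C7 lie near each other on chromosome 5 (C6, ENSG00000039537, chr5:41142218-41261540, minus strand, and C7, ENSG00000112936, chr5:40909594-41020318, plus strand, GRCh37), 121899 bases apart, with 1 other coding gene, MROH2B, in the gap. Within a library, the ratio of C7 to C6 was 6.27, 3.74 and 5.38 in the high group and 4.27, 2.17 and 4.94 in the low group, so that the ranges overlapped while both genes fell. The later components were low throughout: C8A, C8B, C8G and C9 had 46, 64, 1 and 80 reads in all, and none passed the limit for testing. C9, which forms the wall of the pore, lay just outside it with a mean of 0.495 FPKM, from 0.288 to 0.652 FPKM in the high group and from 0.453 to 0.548 FPKM in the low group.

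CD46, CD55 and CD59 are membrane proteins that shield a cell from its own complement: CD46 is a cofactor for factor I, CD55 speeds the decay of the C3 convertases, and CD59 blocks the addition of C9. CD46 was at 65.9, 60.3 and 60.5 FPKM in the high group and at 54.3, 82.4 and 82.3 FPKM in the low group. The groups overlapped through EWSR1::FLI1 low replicate 1, and the 95% interval of the log2 fold change of 0.20 was -0.27 to 0.68 (limma, adjusted p = 0.537). Without that library the fold change was 0.40 and did not pass either (limma, adjusted p = 0.0360).

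CD59 was at 22.0, 22.4 and 23.7 FPKM in the high group and at 39.9, 144 and 136 FPKM in the low group. Every low library was above the high ones, but EWSR1::FLI1 low replicate 1 was far under the other two, and the mean of that group was 107 ± 57.9 FPKM against 22.7 ± 0.853 FPKM (SD, n = 3 each). Its log2 fold change of 1.98, SE 0.43, did not pass (limma, adjusted p = 0.0141). Without EWSR1::FLI1 low replicate 1 the fold change was 2.57 (limma, adjusted p = 2.66e-05), and CD59 also passed with limma-voom (2.14, adjusted p = 0.00490), median-ratio scaling (2.06, limma, adjusted p = 0.00819), quantile normalization (2.16, limma, adjusted p = 0.00396) and a replicate block (1.98, limma, adjusted p = 0.00483).

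CD55 was at 1.13, 1.12 and 1.15 FPKM in the high group and at 1.27, 4.29 and 2.22 FPKM in the low group. The groups did not overlap, though EWSR1::FLI1 low replicate 1 was within 0.2 FPKM of the high group, and the log2 fold change of 0.66, SE 0.28, did not pass (limma, adjusted p = 0.129). Without that library the fold change was 0.95 and did not pass either (limma, adjusted p = 0.0173). C3AR1, the receptor for the C3a fragment, was at 2.05, 3.72 and 3.04 FPKM in the high group and at 0.690, 1.31 and 1.64 FPKM in the low group. All low libraries were under the high ones, with a log2 fold change of -0.83 and an SE of 0.23 that did not pass (limma, adjusted p = 0.0349). C5AR1, the receptor for C5a, had 21 reads in all, with a highest value of 0.573 FPKM in EWSR1::FLI1 low replicate 2.

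In coagulation, the initiator F3 (tissue factor) and its inhibitors were all present. F3 was at 16.4, 18.5 and 21.8 FPKM in the high group and at 18.8, 29.2 and 24.6 FPKM in the low group. These groups overlapped, and the 95% interval of the log2 fold change of 0.33 was -0.16 to 0.82 (limma, adjusted p = 0.317). Factor VII (F7), the plasma protease that tissue factor binds, had 17 reads in all.

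TFPI inhibits factor Xa and the complex of tissue factor and factor VIIa. It was at 26.9, 29.2 and 30.2 FPKM in the high group and at 81.6, 122 and 119 FPKM in the low group. The groups were well apart, with means of 28.8 ± 1.66 and 108 ± 22.5 FPKM (SD, n = 3 each), a log2 fold change of 1.84 and an SE of 0.21 (limma, adjusted p = 0.000557). With each library left out the fold change was 1.74 to 2.03, and TFPI passed in all 6 fits. The ratio of TFPI to F3 within a library was 1.64, 1.58 and 1.38 in the high group and 4.33, 4.19 and 4.82 in the low group, without overlap. TFPI (ENSG00000003436) lies at chr2:188328957-188430487 on the minus strand of GRCh37.

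TFPI2, a related inhibitor of several serine proteases, was at 8.42, 14.2 and 12.7 FPKM in the high group and at 14.0, 218 and 101 FPKM in the low group. EWSR1::FLI1 low replicate 1 lay within the range of the high group, whereas the other low libraries were several times higher. The group means were 11.8 ± 2.99 and 111 ± 102 FPKM (SD, n = 3 each), and the log2 fold change of 2.47 had an SE of 0.80 (limma, adjusted p = 0.0603). It was 3.58 without EWSR1::FLI1 low replicate 1 (limma, adjusted p = 0.000383).

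Of the factors of the cascade itself, the cofactors F5 and F8 entered the test. F5 was at 0.446, 0.683 and 0.478 FPKM in the high group and at 1.11, 0.584 and 0.252 FPKM in the low group, with overlap and a log2 fold change of 0.07 (95% interval from -0.42 to 0.56, limma, adjusted p = 0.851). F8 was at 0.756, 0.954 and 0.842 FPKM against 1.34, 1.28 and 0.990 FPKM, every low library being above the high ones by a small margin, with a log2 fold change of 0.25 (95% interval from -0.11 to 0.61, limma, adjusted p = 0.303). Prothrombin (F2), factor X (F10), the factor XIII A chain (F13A1) and von Willebrand factor (VWF) had 37, 8, 101 and 93 reads in all and stayed under the limit.

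The protein C system degrades factors Va and VIIIa. PROS1, its cofactor protein S, was at 13.9, 17.3 and 16.1 FPKM in the high group and at 29.4, 37.1 and 42.1 FPKM in the low group. The groups did not overlap, with means of 15.8 ± 1.75 and 36.2 ± 6.40 FPKM (SD, n = 3 each), a log2 fold change of 1.14 and an SE of 0.20 (limma, adjusted p = 0.00524). Its direction held with each library left out (1.03 to 1.28), but it passed in 1 of the 6 fits, the one without EWSR1::FLI1 low replicate 1 (limma, adjusted p = 0.000896). The adjusted p was 0.0366, 0.0268 and 0.0309 (limma) without EWSR1::FLI1 high replicates 1, 2 and 3 and 0.0183 and 0.0124 without EWSR1::FLI1 low replicates 2 and 3.

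PROCR, the endothelial protein C receptor, was at 2.44, 2.03 and 3.74 FPKM in the high group and at 2.20, 9.28 and 8.91 FPKM in the low group. As for TFPI2, EWSR1::FLI1 low replicate 1 lay among the high libraries and the other low libraries lay above them. The log2 fold change was 0.91, SE 0.42 (limma, adjusted p = 0.163), and 1.46 without that library (limma, adjusted p = 0.00247). THBD, thrombomodulin, had 35 reads in all, with at most 0.223 FPKM.

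F2R encodes PAR1, a receptor that thrombin activates by cleavage. It was at 58.5, 54.9 and 63.7 FPKM in the high group and at 134, 174 and 159 FPKM in the low group. The groups were far apart relative to their spread, with means of 59.0 ± 4.45 and 156 ± 20.3 FPKM (SD, n = 3 each), a log2 fold change of 1.38 and an SE of 0.18 (limma, adjusted p = 0.00112). The call was lost without EWSR1::FLI1 high replicate 2 (1.33, limma, adjusted p = 0.0139). F2R (ENSG00000181104) lies at chr5:76011951-76031595 on the plus strand of GRCh37.

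Summed over the 27 complement genes, expression was 135, 118 and 119 FPKM in the high group and 139, 307 and 268 FPKM in the low group. The sums are led by CD46 and CD59, except that C7 (24.7 FPKM) was above CD59 (22.0 FPKM) in EWSR1::FLI1 high replicate 1. EWSR1::FLI1 low replicate 1 was close to the high group. Summed over the 14 coagulation genes, expression was 129, 139 and 151 FPKM in the high group and 284, 594 and 457 FPKM in the low group, without overlap. F2R and TFPI led these sums except in EWSR1::FLI1 low replicate 2, where TFPI2 was the largest at 218 FPKM. The ratio of CD59 to CD55 within a library was 19.5 to 20.5 in the high group and 31.5, 33.5 and 61.2 in the low group.

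**Figure D3:**
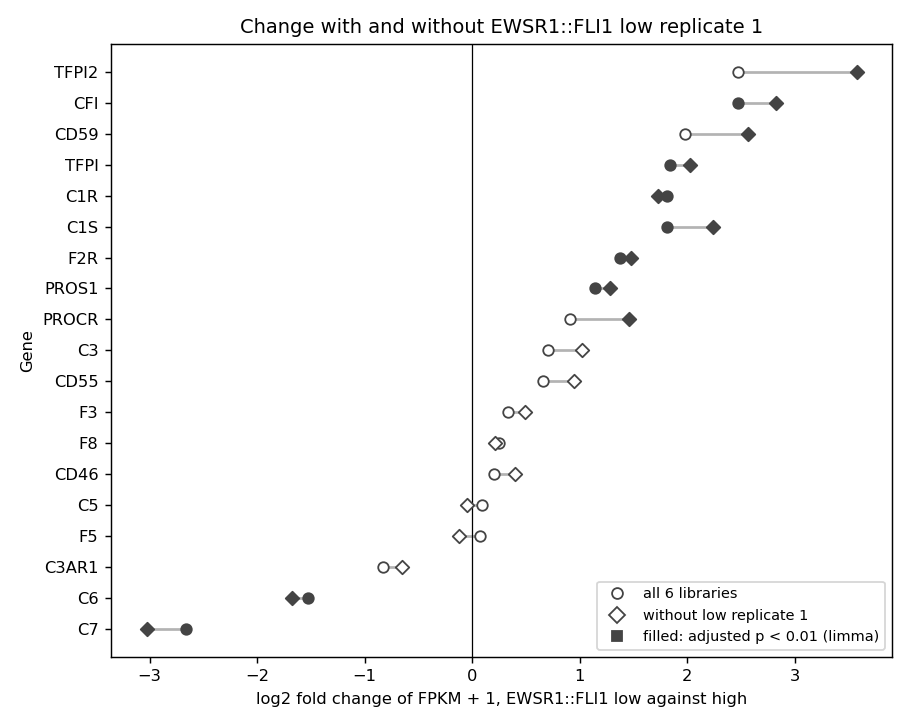
Log2 fold change of FPKM + 1, EWSR1::FLI1 low against high, for the 19 tested genes with all 6 libraries (circles) and without EWSR1::FLI1 low replicate 1 (diamonds), filled where the adjusted p from limma was under 0.01. CD59, TFPI2 and PROCR were filled only without that library, at 2.57, 3.58 and 1.46, and the 8 genes that passed with all libraries were filled in both.

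EWSR1::FLI1 low replicate 1 bore on several of these values. Of the 16 tested genes with a positive fold change, it was the lowest low library for 11 (68.8%), and of the 700 genes that rose in the whole table it was the lowest for 417 (59.6%). Relative to the mean of the other low libraries, TFPI2 stood at 0.0880, PROCR at 0.242, CD59 at 0.285 and C3 at 0.344 in it, whereas C1R stood at 1.19. C6 and C7 were higher in it than in the other low libraries, at 2.34 and 3.08 times their mean. The plot with and without this library shows CD59, TFPI2 and PROCR passing in its absence, and no gene losing its call.

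**Figure D4:**
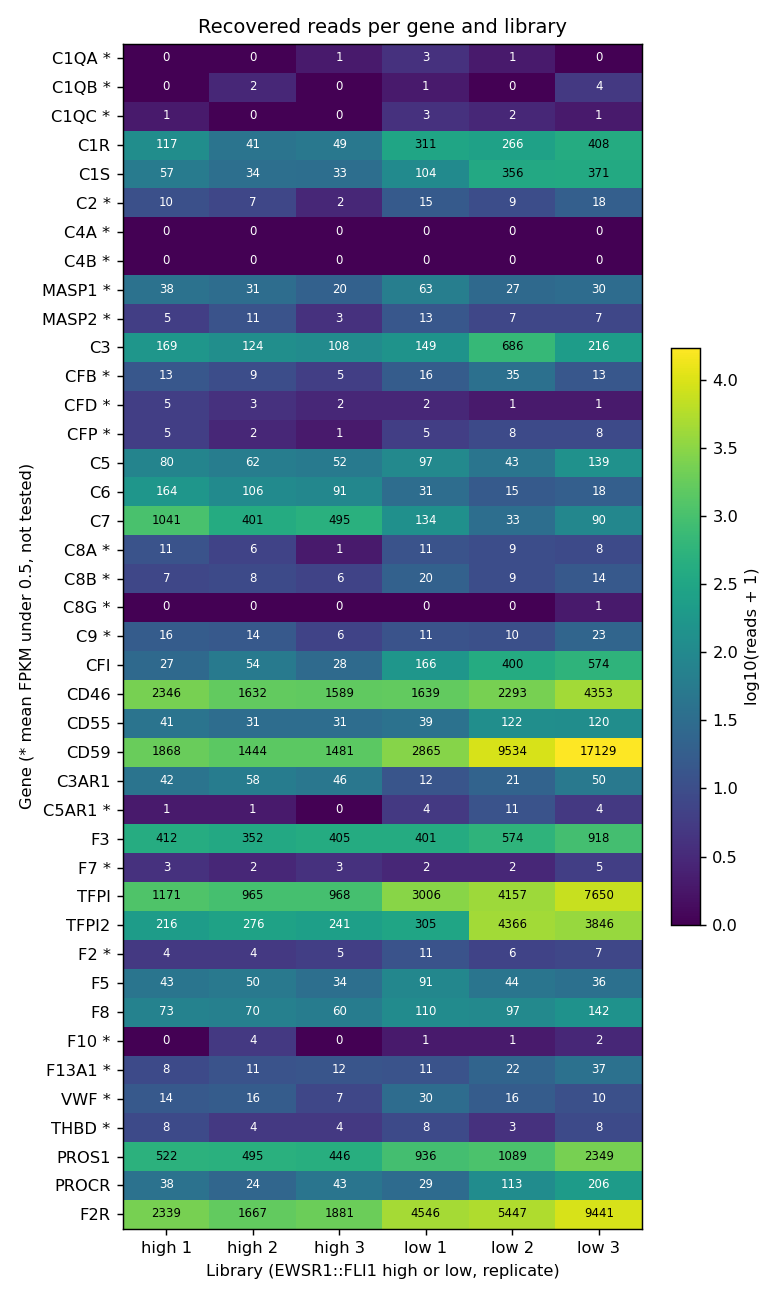
Whole reads recovered from the deposited FPKM for each of the 41 genes (rows) in each library (columns), coloured by log10(reads + 1), with an asterisk for the 22 genes under a mean of 0.5 FPKM. CD59, F2R and TFPI had 2865 or more reads in the EWSR1::FLI1 low libraries, and C4A and C4B had none in any library.

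The map of reads shows the depth behind each value. Of the 22 genes under the limit, 2 had no read, 5 had 1 to 10 reads over the 6 libraries and 15 had more, up to 209 for MASP1, and the highest value in one library was 0.895 FPKM (C8B in EWSR1::FLI1 low replicate 1). Just outside the limit of 0.5 FPKM were F13A1, C8B and C9 with means of 0.431, 0.444 and 0.495 FPKM, and just inside were F5, F8 and C5 with 0.593, 1.03 and 1.44 FPKM. Of the 20 genes under the limit with any read, EWSR1::FLI1 low replicate 1 was the highest library for 10, and the same held for 49.5% of the 8984 such genes in the whole table. These 22 genes entered no test in the reported fit.

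Of the other genes of both cascades, a list of 60 was looked at, of which 24 entered the test. In it 4 passed (16.7%, against 7.88% of all genes tested), 3 higher and 1 lower (4.51% and 3.37% of all genes), with a median log2 fold change of 0.28 against -0.05. A2M, alpha-2-macroglobulin, an inhibitor that traps proteases, was at 0.983, 1.24 and 1.39 FPKM in the high group and at 42.7, 39.9 and 31.8 FPKM in the low group, with a log2 fold change of 4.14 and an SE of 0.18 (limma, adjusted p = 8.47e-06). CPB2, the carboxypeptidase that slows fibrinolysis once activated by thrombin, was at 13.6, 12.4 and 12.9 FPKM in the high group and at 1.59, 0.552 and 1.31 FPKM in the low group, with a log2 fold change of -2.73 and an SE of 0.21 (limma, adjusted p = 0.000112). Both genes had groups that were far apart in every library.

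F2RL2, which encodes the thrombin receptor PAR3, was at 26.6, 26.9 and 30.4 FPKM in the high group and at 95.1, 94.1 and 124 FPKM in the low group (log2 fold change 1.85, SE 0.19, limma, adjusted p = 0.000359). CLU, clusterin, a soluble inhibitor of the membrane attack complex, was at 14.4, 15.2 and 18.6 FPKM in the high group and at 63.4, 69.5 and 48.2 FPKM in the low group (log2 fold change 1.84, SE 0.21, limma, adjusted p = 0.000572). Neither gene's groups overlapped. F2R, F2RL2 and F2RL1 lie together on chromosome 5, F2R 92712 bases from F2RL2, a gap into which IQGAP2 extends, and 83162 bases from F2RL1, with no coding gene between. F2RL1, which encodes PAR2, was at 0.529, 0.522 and 0.313 FPKM in the high group and at 2.26, 43.1 and 18.1 FPKM in the low group, and its log2 fold change of 3.27, SE 0.76, did not pass (limma, adjusted p = 0.0183). F2RL1 averaged 0.455 FPKM in the high group and entered the test only through the low group. Its log2 fold change was 4.32 without EWSR1::FLI1 low replicate 1 (limma, adjusted p = 0.000159). Without that library 7 genes of the list rose and 3 fell, while over all genes the count that rose went from 700 to 1452 and the count that fell from 522 to 726.

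Markers of Ewing sarcoma, endothelium, hepatocytes, macrophages, and platelets and megakaryocytes were measured in the same libraries. The summed level of 5 Ewing sarcoma markers, CD99, NR0B1, NKX2-2, STEAP1 and CCND1, was 686 to 716 FPKM in the high group and 199 to 274 FPKM in the low group, and all 5 were detected in every library. CCND1, at 375 to 394 FPKM in the high group, was the largest term. NR0B1, NKX2-2, STEAP1 and CCND1 each passed as lower, while CD99 did not pass (log2 fold change -0.53, limma, adjusted p = 0.0670). The 5 endothelial markers summed to 41.3 to 48.7 FPKM in the high group and 67.4 to 153 FPKM in the low group, mostly from EMCN. EMCN itself did not pass (log2 fold change 1.18, limma, adjusted p = 0.0257). KDR rose (log2 fold change 2.52, limma, adjusted p = 0.000108), but it averaged 0.347 FPKM in the high group and entered the test only through the low group. PECAM1 was at 0.278, 0.366 and 0.348 FPKM in the high group and at 0.934, 1.56 and 0.879 FPKM in the low group, without overlap. It did not pass (limma, adjusted p = 0.0333). Like KDR, PECAM1 averaged under 0.5 FPKM in the high group and entered the test only through the low group. CDH5 and TEK stayed at or under 0.518 FPKM. The 5 hepatocyte markers summed to 0.557 to 1.51 FPKM and 2.70 to 5.23 FPKM in the same order. Of these, APOA1 reached 1.5 FPKM and SERPINA1 2.48 FPKM in low replicate 2, against at most 0.106 and 0.210 FPKM in the high group. Neither passed (limma, adjusted p = 0.0728 and 0.0967). Both averaged under 0.5 FPKM in the high group and entered the test only through the low group. The groups of SERPINA1 did not overlap. For APOA1 the highest high library and the lowest low library, at 0.106 and 0.125 FPKM, held 1 read each. ALB stayed at or under 0.350 FPKM. For the 5 macrophage markers the sums were 1.31 to 2.06 FPKM and 1.44 to 2.79 FPKM, and for the 5 platelet and megakaryocyte markers 0.370 to 0.835 FPKM and 0.516 to 1.49 FPKM, and every marker had a read in at least one library, GP9 in low libraries only. The part of endothelial or hepatocyte markers in the results above was not tested.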

How the data were processed

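RNAseq libraries of A673/TR/shEF cells, 3 per group, were grouped by the treatment in their labels. The authors describe mRNA libraries made with the ScriptSeq kit, and reads aligned to GRCh37. The submitters' processing notes name STAR 2.5.0b, Cufflinks 2.2.1, DESeq2 1.6.3 and bedtools 2.17.0. The authors deposited FPKM per gene symbol and library, and a table of their own comparison with a mean signal per gene (baseMean, normalized counts averaged over libraries), fold changes and p-values. Their fold changes and p-values were not used. From the deposited FPKM and mean signal, 100% of values came out as whole reads within 0.1 reads, which gave the depth per library. The FPKM had been scaled between libraries, with size factors from 0.829 to 1.67.

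Genes with a mean of at least 0.5 FPKM were tested with limma 3.58.1 (R 4.3.3, eBayes with trend) on log2(FPKM + 1) without a block, with Benjamini-Hochberg adjustment over 15504 genes and a limit of 0.01. A fold change on this scale understates the change of low genes. C7 and CD59 were also compared with a two-sided exact permutation test. Tables and plots were made with matplotlib 3.10.9, scipy 1.17.1 and pandas 2.3.3 in Python 3.11.15, and the fit was first tested on simulated data. Replicates of a group differed by a chi-square per degree of freedom of 4.32 to 6.39 (EWSR1::FLI1 high) and 20.6 to 32.1 (EWSR1::FLI1 low). Each library was counted as 1 sample, but this spread cannot show whether the samples are independent cultures or clones.

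Tested members are described with their values, members under the filter by reads or ranges, and of the list of other pathway genes those that passed. F2RL1, KDR, PECAM1, APOA1, SERPINA1 and TTR were chosen after their values were seen. All of these averaged under 0.5 FPKM in the high group and entered the test only through the low group. The members and lists were chosen with earlier results of these data known. Alternatives were another pseudocount, other filters, median-ratio and quantile scaling, eBayes without trend, a replicate block, limma-voom on recovered reads, an adjusted p limit of 0.05 and leaving out each library. Gene positions come from the GRCh37 lift of GENCODE v44, and promoter windows those of RefSeq on GRCh38.p14.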

Additional observations from a re-analysis of the deposited data

How the results depend on the processing

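Of the 8 members that passed, 3 (C6, C7 and TFPI) passed in each of the 14 alternative fits, and none of the 8 reversed. Of the 11 others, CD59, TFPI2 and PROCR passed in some fit, C5 and F5 reversed, and 6 stayed as reported. C5 was at -0.05 with quantile normalization and without EWSR1::FLI1 low replicate 1 (-0.05 to 0.26 with each library left out). F5 was at -0.07 with limma-voom, -0.03 with quantile normalization and -0.12 without the same library (-0.12 to 0.26). Members higher were 7 with limma-voom, median-ratio scaling or an adjusted p under 0.05, and 5 with no filter. Members lower were 3 with an adjusted p under 0.05, where C3AR1 passed, and 2 in the other fits.

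Over all genes, limma-voom gave 1125 higher and 874 lower, median-ratio scaling 994 higher and 813 lower, quantile normalization 992 higher and 1000 lower (49.8% higher, against 57.3% as reported), no filter 456 higher and 297 lower, and an adjusted p under 0.05 gave 1530 higher and 1537 lower. In the list of other pathway genes, 2 were lower with limma-voom, median-ratio scaling, quantile normalization or an adjusted p under 0.05, and 5 were higher with the latter. With each library left out in turn, 287 to 1452 genes were higher and 156 to 726 lower, 2 to 9 members were higher, and 3 to 7 genes of the pathway list were higher and 1 to 3 lower. The cause was not tested. The median log2 fold change of all genes was -0.11 with a mean of at least 1 FPKM, and -0.09 to 0.02 otherwise.

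The replicate block gave 7 members higher and 2 lower, and 916 genes higher and 786 lower. Equal numbers share no stated day or culture, so the reported fit has no block. The correlations of same-numbered libraries' deviations from their group means were 0.27, 0.09 and 0.12. Between differently numbered libraries they ran from -0.29 to -0.01, except for 0.19 between EWSR1::FLI1 high replicate 3 and EWSR1::FLI1 low replicate 2. Whether equal numbers pair the samples was not tested.

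Reads per gene limit the 22 members under the filter, and 3 samples per group limit every test.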
